A study of Mus musculus with 4 samples.

Results

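The genes described here repair DNA breaks or signal their presence. They were chosen by symbol from a list of 38 genes, 1 probe set per gene, the one with the highest mean over the arrays. Of the 38, 36 were measured among 18193 genes in all, and Xrcc2 and Rbbp8 were not analysed here. The platform annotation lists H2afx under its current symbol H2ax. All 36 are described below, by role: 9 genes of end joining, 4 of single-strand break repair and alternative end joining, 13 of break sensing and signalling, 9 of homologous recombination and 1 of mismatch repair. The 2 groups of mouse bone marrow cells compared were CLP_RAGhigh and CLP_RAGlow, each with 2 Affymetrix MOE430_2 arrays and 2000 cells per sample. Both are sorted fractions of common lymphoid progenitors (CLP), cells that give rise to B, T and natural killer cells, taken from C57Bl6 mice aged 8 to 12 weeks. The sample descriptions call the fractions GFPhigh and GFPlow but do not describe the reporter, its promoter or whether it alters a Rag gene, and no treatment is named. The labels call the replicates biological without saying whether they came from different mice or sorting days. Every p-value here thus reflects the scatter of these 4 samples, which may be technical.

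A lymphoid progenitor that begins V(D)J recombination cuts its own antigen receptor genes with the RAG recombinase. The broken ends are held by the Ku heterodimer and the DNA-dependent protein kinase and are sealed by XRCC4 and DNA ligase IV, the pathway called nonhomologous end joining, which works throughout the cell cycle. Homologous recombination instead copies an intact sister chromatid, and is therefore largely a pathway of S and G2 phase, when its genes are also most transcribed. ATM and ATR, with the MRE11-RAD50-NBN complex, sense breaks and stalled forks and mark the chromatin around them.

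The 5 promoters below belong to genes chosen for an unadjusted p under 0.05 in the comparison given further on. Parp1 and Xrcc6 were higher in CLP_RAGhigh, and Mre11a, Brca1 and Rad54l were lower. H2afx also had such a p but no matched promoter, and no gene passed after adjustment. The promoters are the 250 bases before the annotated start, from RefSeq on GRCm38.p6, 5′ to 3′ on the strand of the gene. Parp1 lies at chr1:180568641-180568890 on the plus strand and Xrcc6 at chr15:82016119-82016368 on the plus strand. Mre11a lies at chr9:14784404-14784653 on the plus strand, Brca1 at chr11:101551956-101552205 on the minus strand and Rad54l at chr4:116123691-116123940 on the minus strand. Capitals mark the words searched, on both strands: the E2F words TTTGGCGC, TTTCCCGC, TTTGCCGC and TTTCGCGC, the CCAAT box CCAAT and the GC box GGGCGG. None of these words overlapped a word of another kind in these 5 promoters.
Parp1: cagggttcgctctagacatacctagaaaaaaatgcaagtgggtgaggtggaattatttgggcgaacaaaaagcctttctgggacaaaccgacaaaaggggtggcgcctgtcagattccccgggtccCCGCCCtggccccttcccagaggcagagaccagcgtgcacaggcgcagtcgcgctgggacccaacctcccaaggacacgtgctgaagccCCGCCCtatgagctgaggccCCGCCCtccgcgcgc
Xrcc6: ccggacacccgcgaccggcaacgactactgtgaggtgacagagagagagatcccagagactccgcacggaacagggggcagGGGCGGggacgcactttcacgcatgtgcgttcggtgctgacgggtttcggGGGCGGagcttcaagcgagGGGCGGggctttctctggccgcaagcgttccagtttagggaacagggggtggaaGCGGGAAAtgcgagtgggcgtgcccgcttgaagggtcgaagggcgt
Mre11a: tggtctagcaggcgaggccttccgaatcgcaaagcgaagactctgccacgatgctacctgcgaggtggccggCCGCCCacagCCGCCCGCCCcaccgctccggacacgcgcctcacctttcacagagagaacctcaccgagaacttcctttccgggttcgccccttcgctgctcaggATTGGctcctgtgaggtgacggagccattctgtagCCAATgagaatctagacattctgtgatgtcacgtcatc
Brca1: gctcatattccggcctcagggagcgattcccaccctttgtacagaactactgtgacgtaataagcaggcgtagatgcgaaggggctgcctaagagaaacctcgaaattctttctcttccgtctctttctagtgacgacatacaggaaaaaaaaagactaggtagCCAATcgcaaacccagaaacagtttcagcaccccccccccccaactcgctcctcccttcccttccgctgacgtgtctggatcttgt
Rad54l: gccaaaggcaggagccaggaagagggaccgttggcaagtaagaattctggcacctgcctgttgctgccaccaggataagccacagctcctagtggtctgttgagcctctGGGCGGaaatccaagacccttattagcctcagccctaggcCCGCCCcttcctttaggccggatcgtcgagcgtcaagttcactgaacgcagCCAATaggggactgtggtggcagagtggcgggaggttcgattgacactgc

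Xrcc6 held 1 E2F word and 3 GC boxes, and Parp1 held 3 GC boxes with neither of the other kinds. Mre11a, Brca1 and Rad54l each held a CCAAT box, Mre11a with copies 73 and 38 bases before the start, Brca1 at 86 and Rad54l at 50. Genes separated upward also held the box, with 6 copies in the promoter of Xrcc3 and 1 in that of Xrcc5. Promoters were matched for 30 of the 36 genes, with 32 starts, and not for H2afx, Prkdc, Poll, Rad50, Nbn and Exo1. Lig4 and Rad54l were each entered with 2 starts. Those of Rad54l lie at neighbouring bases, so the same words are counted for both. An E2F word was present in 6 of these 32 promoters (18.8%) and in 1.86% of 32851 promoters in the table. Those were 1 of 8 end-joining promoters (Xrcc6), 3 of 10 sensing promoters (Topbp1, Chek2 and Mdc1) and 2 of 9 homologous recombination promoters (Bard1 and Brca2). A CCAAT box was present in 15 of 32 (46.9%) against 33.8% of all, a GC box in 22 (68.8%) against 32.7%, and the cell cycle homology word TTTGAA in 2 (6.25%) against 16%. The median number of CG pairs was 17.5 in the members' promoters and 6 in all promoters. The shares of these words, with or without CG in them, are therefore not compared on an equal footing. A word is a match of letters and not a bound site.

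The values are log2 of the deposited RMA intensity, and all differences are CLP_RAGhigh minus CLP_RAGlow. Differences were tested with limma, which pools the spread over genes, with Benjamini-Hochberg adjusted p over all 18193 genes. At an adjusted p under 0.05, 0 of 18193 genes passed in either direction (0% each), and 0 of the 36 members. The unadjusted limma p was under 0.05 for 428 genes higher (2.35%) and 535 lower in CLP_RAGhigh (2.94%), or 5.29% in either direction. Among the 36 members it was under 0.05 for 2 higher, Parp1 and Xrcc6 (5.56%), and 4 lower, H2afx, Mre11a, Rad54l and Brca1 (11.1%). This count of 6 changed in every fit with an array left out, falling in some and rising in another. The groups did not overlap for 15 members, 5 higher in CLP_RAGhigh (13.9%) and 10 lower (27.8%), where 15.4% and 15.8% of all genes were separated in these directions. The median difference over the 36 was -0.10, with 13 means higher and 23 lower, beside 0.003 over all genes.

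As a check of the labels, Rag1, which encodes the DNA-cutting protein of the RAG enzyme, had levels of 10.92 and 10.62 in CLP_RAGhigh and 7.72 and 8.53 in CLP_RAGlow. CLP markers were present in all 4 arrays, with the receptor genes Flt3 between 10.65 and 11.17 and Il7r between 10.24 and 11.81. Of the T and natural killer cell markers, the T-cell receptor subunit gene Cd3e stayed between 4.54 and 4.82 and Nkg7 lay between 9.12 and 9.46, and no marker of the list had an unadjusted limma p under 0.05. The neutrophil gene S100a8 was at 9.60 to 10.15 on 3 arrays and at 3.81 on CLP_RAGlow replicate 2. The neutrophil genes S100a9, Ngp, Camp and Ltf, named after their values were seen, also lay between 5.77 and 10.38 on those 3 arrays and between 3.55 and 3.87 on CLP_RAGlow replicate 2. Mpo, Elane, Prtn3, Ctsg, Lyz2 and Csf1r, the measured rest of the granulocyte and monocyte list, were not lowest on that array. Mpo was at 11.03 on CLP_RAGlow replicate 2 and between 10.70 and 10.91 on the other 3. Over all genes the CLP_RAGhigh arrays had a correlation of 0.9625 and the CLP_RAGlow arrays 0.9759, beside 0.9626 to 0.9694 for pairs between the groups. The CLP_RAGhigh replicates were thus no more alike than arrays of different groups. The mean intensity of hybridisation controls was 4029 on CLP_RAGhigh replicate 2 and between 2310 and 2451 on the other 3. Precision is limited by having 4 arrays, and in such sorted populations fewer cells expressing a gene and less RNA per cell cannot be told apart.

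**Figure D1:**
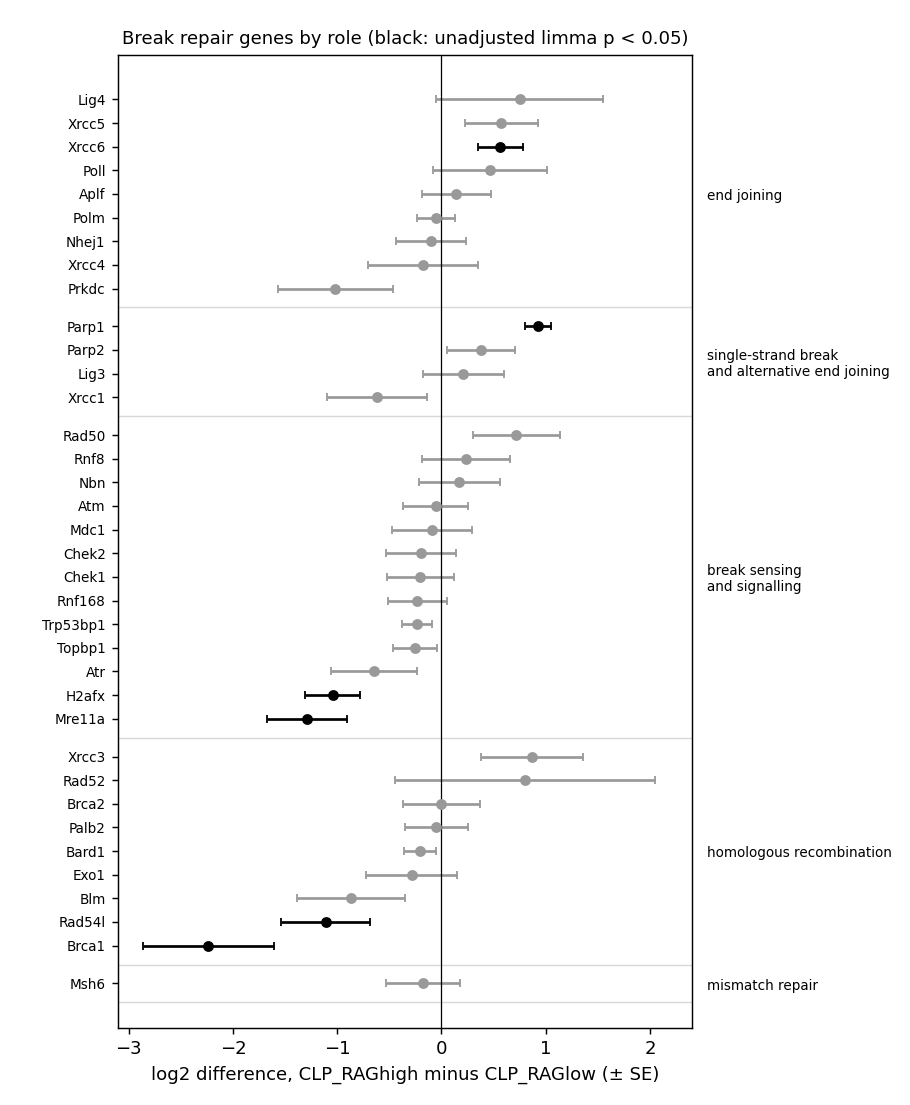
Log2 difference of each of the 36 measured genes, CLP_RAGhigh minus CLP_RAGlow, grouped by role, with bars for limma standard errors (n = 2 arrays per group). The 6 genes in black have an unadjusted limma p under 0.05, from Parp1 at 0.93 to Brca1 at -2.24, and none passes after adjustment.

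Among the end-joining genes, both Ku subunits were higher on both CLP_RAGhigh arrays, while the kinase and the ligation genes had groups that overlapped. Xrcc6, which encodes Ku70, had levels of 11.12 and 10.83 in CLP_RAGhigh and 10.21 and 10.61 in CLP_RAGlow. Its difference was 0.57 ± 0.21 (SE, n = 2 per group) or 1.48-fold, with an unadjusted limma p of 0.0400 and an adjusted p of 0.928. The second probe set of Xrcc6 gave 0.51, also without overlap. The unadjusted p of Xrcc6 was under 0.05 in 5 of 11 alternatives and in 1 of 4 fits with an array left out, and the difference was 0.36 without CLP_RAGlow replicate 1. Xrcc5, which encodes the partner Ku80, had levels of 6.61 and 6.73 against 6.21 and 5.98. The 2 groups of Xrcc5 did not overlap either, with a difference of 0.58 ± 0.35 (limma adjusted p = 0.979).

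Prkdc, the catalytic subunit of the DNA-dependent protein kinase that Ku recruits, had levels of 7.32 and 6.19 in CLP_RAGhigh and 8.26 and 7.28 in CLP_RAGlow. The groups overlapped, since the higher CLP_RAGhigh array lay just above the lower CLP_RAGlow array, and the difference was -1.02 ± 0.55 (limma adjusted p = 0.979). It was -0.46 without CLP_RAGhigh replicate 2, -0.53 without CLP_RAGlow replicate 1 and -1.58 without CLP_RAGhigh replicate 1. Of the ligation complex, Lig4, the DNA ligase of end joining, had levels of 5.61 and 3.72 against 4.80 and 3.04. The replicates of Lig4 lay far apart within both groups (SD 1.33 and 1.24), and the difference of 0.75 ± 0.80 was smaller than its error. Xrcc4, the scaffold of that ligase, had levels of 5.14 and 4.81 against 5.86 and 4.44 and a difference of -0.18 ± 0.53. Nhej1, which encodes the stabilising factor XLF, had levels of 5.65 and 5.40 against 5.70 and 5.55 and a difference of -0.10 ± 0.34. The 4 arrays of Nhej1 spanned a narrow range, and for neither Xrcc4 nor Nhej1 did the groups separate.

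The end-processing members gave no separated groups. The gap-filling polymerase genes Poll and Polm differed by 0.47 ± 0.55 and -0.05 ± 0.18, and Polm was below the median of all probe sets, 3.88, on every array. Aplf, which docks on Ku, differed by 0.14 ± 0.33, and its 2 probe sets ran from -0.30 to 0.14. Over the 9 genes of end joining, 5 means were higher and 4 lower in CLP_RAGhigh. The groups separated above for 2 (22.2%, beside 15.4% of all genes) and below for 0 (0%, beside 15.8%). The median difference of the 9 genes was 0.14, and it turned to -0.19 without CLP_RAGhigh replicate 1. It was -0.05 with all probe sets of a gene averaged and 0.06 with an offset of 32 added before log2.

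**Figure D2:**
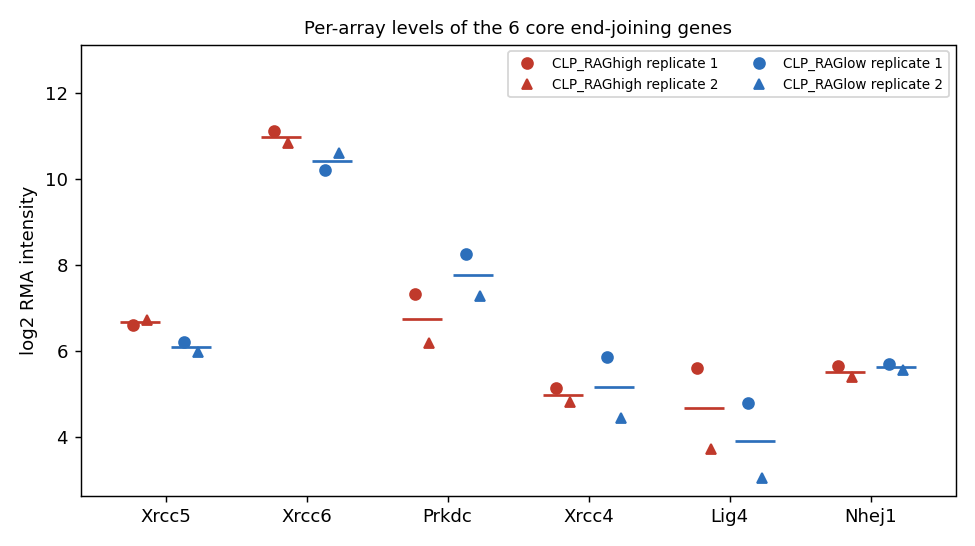
Log2 RMA intensity of the 6 core end-joining genes on each array, CLP_RAGhigh in red and CLP_RAGlow in blue, with circles for replicate 1, triangles for replicate 2 and bars for group means. Xrcc5 and Xrcc6 are the genes of this plot whose groups do not overlap, and Lig4 spans 3.04 to 5.61.

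The member with the smallest p was Parp1, a poly(ADP-ribose) polymerase that binds single-strand breaks and also promotes alternative end joining. Its levels were 11.88 and 11.81 in CLP_RAGhigh and 10.91 and 10.91 in CLP_RAGlow, so the replicates lay close together and the groups far apart. The difference was 0.93 ± 0.13 or 1.91-fold, with an unadjusted limma p of 0.000372 and an adjusted p of 0.282, which ran from 0.208 to 1 over the alternatives. Parp1 had an unadjusted limma p under 0.05 in 11 of 11 alternatives, more than any other member. Of its 4 probe sets, 3 separated the groups, with differences of 0.93, 1.26 and 1.37, and the dimmest gave 0.004 with overlapping groups.

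The other genes of this role had groups that overlapped. Parp2, a relative of Parp1, had levels of 8.77 and 9.20 in CLP_RAGhigh and 8.37 and 8.83 in CLP_RAGlow, a difference of 0.38 ± 0.32. Xrcc1, the scaffold of single-strand break repair that poly(ADP-ribose) recruits, had levels of 7.24 and 6.21 against 7.09 and 7.59, a difference of -0.62 ± 0.48. Parp2 was thus higher by less than the replicates of a group differed, and Xrcc1 was low on CLP_RAGhigh replicate 2 alone. Lig3, the ligase that XRCC1 binds, differed by 0.21 ± 0.39, and its 5 probe sets ran from -0.40 to 0.21. Over the 4 genes the median difference was 0.30, with 0.21 to 0.39 when 1 array was left out and 0.17 with probe sets averaged.

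**Figure D3:**
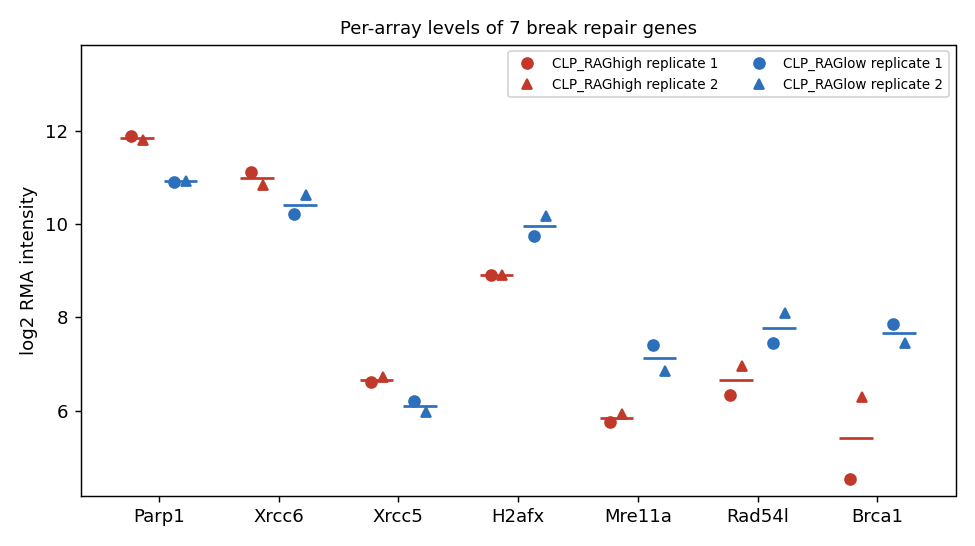
Log2 RMA intensity on each array for 7 of the genes whose groups do not overlap, CLP_RAGhigh in red and CLP_RAGlow in blue, with bars for group means. Shown are the 6 members with an unadjusted limma p under 0.05 and Xrcc5, the Ku partner of Xrcc6. Other separated members are not shown. Parp1, Xrcc6 and Xrcc5 are higher in CLP_RAGhigh, and H2afx, Mre11a, Rad54l and Brca1 are lower.

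Among the 13 genes that sense breaks and signal them, 10 had a lower mean in CLP_RAGhigh and 3 a higher one. The groups separated below for 6 (46.2%, beside 15.8% of all genes) and above for 1 (7.69%, beside 15.4%). H2afx, the histone variant that is phosphorylated around breaks, had levels of 8.90 and 8.92 in CLP_RAGhigh and 9.74 and 10.17 in CLP_RAGlow. The groups lay well apart, and the difference was -1.04 ± 0.26 or 2.06-fold lower, with an unadjusted limma p of 0.00781 and an adjusted p of 0.703. Its p was under 0.05 in 10 of 11 alternatives, the exception being the fit without CLP_RAGlow replicate 2.

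The 3 subunits of the break-sensing MRN complex did not go one way. Mre11a, its nuclease, had levels of 5.75 and 5.93 in CLP_RAGhigh and 7.42 and 6.85 in CLP_RAGlow, with no overlap. The difference was -1.29 ± 0.38 or 2.45-fold lower, with an unadjusted limma p of 0.0162 and an adjusted p of 0.812, while its second probe set gave 0.22 with overlapping groups. With both probe sets averaged the difference of Mre11a was -0.54, with an unadjusted limma p of 0.145 and an adjusted p of 1. The unadjusted p was under 0.05 in 8 of 11 alternatives and in 2 of 4 fits with an array left out. Rad50, the ATPase that bridges the ends, had levels of 8.31 and 9.18 against 7.76 and 8.30. Its groups separated upward by a very narrow margin, with a difference of 0.72 ± 0.42, and its second, dim probe set gave -0.05. The value of Rad50 was 0.28 without CLP_RAGhigh replicate 2 and 1.15 without CLP_RAGhigh replicate 1. Nbn, the subunit that recruits ATM, differed by 0.17 ± 0.39 with overlapping groups.

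No kinase gene had an unadjusted limma p under 0.05. Atr, the kinase that answers single-stranded DNA at stalled forks, had levels of 6.55 and 7.29 in CLP_RAGhigh and 7.74 and 7.39 in CLP_RAGlow. All 3 of its probe sets were lower in the mean, and the difference was -0.64 ± 0.41 (limma adjusted p = 0.981), with -0.28 without CLP_RAGhigh replicate 1 and -1.01 without CLP_RAGhigh replicate 2. Topbp1, the activator of ATR, differed by -0.25 ± 0.21 and Chek2, the kinase downstream of ATM, by -0.20 ± 0.34. Both separated below by a very narrow margin, with the nearest arrays at 10.20 and 10.21 for Topbp1 and at 7.56 and 7.58 for Chek2. Atm, the main kinase at RAG breaks, had group means of 8.03 and 8.09 and a difference of -0.06 ± 0.31. Chek1, downstream of ATR, differed by -0.20 ± 0.32.

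Trp53bp1, which shields ends from resection and so favours end joining, had levels of 10.96 and 10.88 in CLP_RAGhigh and 11.10 and 11.22 in CLP_RAGlow. The groups of Trp53bp1 did not overlap on this probe set, but the difference was small, at -0.23 ± 0.15, and its 6 probe sets ran from -0.27 to 0.38. Mdc1, the reader of phosphorylated H2AX, differed by -0.09 ± 0.38. Rnf8 and Rnf168, the ubiquitin ligases that act after it, differed by 0.23 ± 0.42 and -0.23 ± 0.28. The median difference of the 13 genes was -0.20, and it was -0.06 without CLP_RAGhigh replicate 1.

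The 9 measured homologous recombination genes had a median difference of -0.21, with 7 means lower and 2 higher in CLP_RAGhigh. The groups separated below for 4 (44.4%, beside 15.8% of all genes) and above for 1 (11.1%, beside 15.4%). Among the 9 the median gene was the dim Bard1, and with an offset of 32 added before log2 the median was -0.03. Brca1, which promotes the resection of broken ends, had levels of 4.55 and 6.29 in CLP_RAGhigh and 7.86 and 7.46 in CLP_RAGlow. Both CLP_RAGhigh arrays were below both CLP_RAGlow arrays, although they lay far apart from each other (SD 1.23). The difference was -2.24 ± 0.63 or 4.72-fold lower, with an unadjusted limma p of 0.0128 and an adjusted p of 0.812, and it was -1.37 without CLP_RAGhigh replicate 1. Of the other 3 probe sets of Brca1, 2 separated below at -0.82 and -0.73 with dim levels, and 1 gave 0.06. The average over the 4 was -0.93, and the unadjusted limma p of Brca1 was under 0.05 in 10 of 11 alternatives, the exception being the fit without CLP_RAGlow replicate 1.

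Rad54l, a motor protein that moves along DNA during strand exchange, had levels of 6.35 and 6.96 in CLP_RAGhigh and 7.45 and 8.08 in CLP_RAGlow. The groups did not overlap, and the difference was -1.11 ± 0.42 or 2.16-fold lower, with an unadjusted limma p of 0.0410 and an adjusted p of 0.928. The unadjusted p of Rad54l was under 0.05 in 8 of 11 alternatives but in 1 of 4 fits with an array left out. A pair of its dimmer probe sets, singled out after their values were seen, differed far more. The first had levels of 2.69 and 2.96 against 6.54 and 7.19, and the second had 3.88 and 3.42 against 6.06 and 6.95. When every probe set with 1 gene was fitted separately, 0 of 34945 passed an adjusted p of 0.05 (0%), while 2.24% were higher and 2.56% lower at an unadjusted limma p under 0.05, and for the first of the pair the difference was -4.04 ± 0.38 with a limma adjusted p of 0.315. On the CLP_RAGhigh arrays this probe set lay below the median of all probe sets, so the size of its difference depends on the background. The remaining probe set of Rad54l gave 0.03 with overlapping groups.

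**Figure D4:**
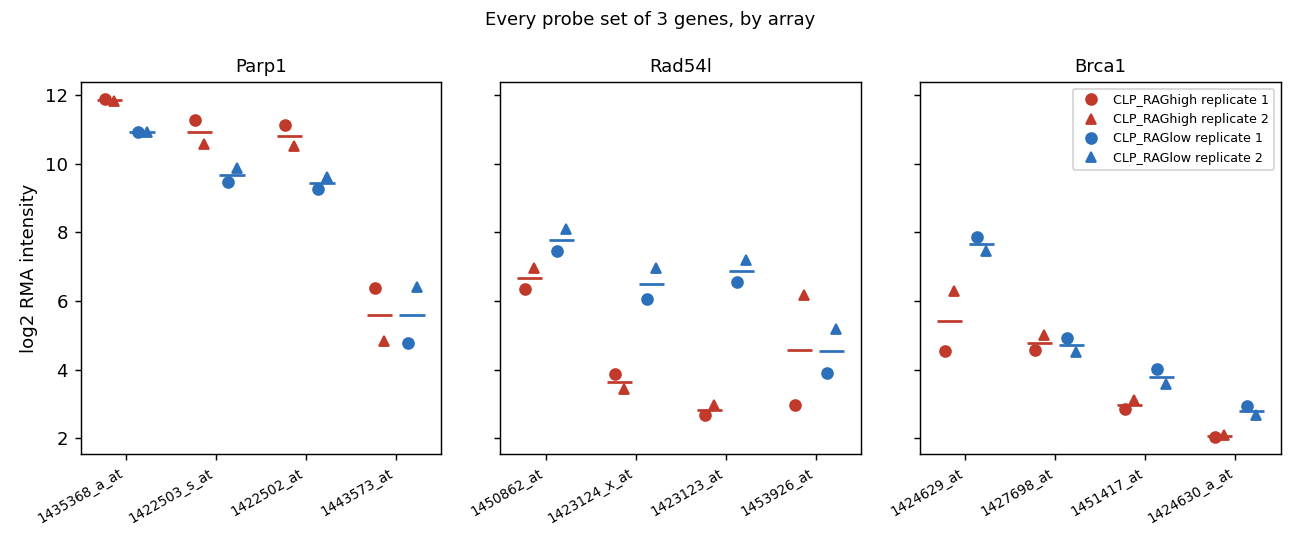
Log2 RMA intensity of every probe set of Parp1, Rad54l and Brca1 on each array, brightest probe set at the left of each panel, with bars for group means. The groups separate on 3 of 4 probe sets of each gene, and levels are comparable between arrays within a probe set but not between probe sets.

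The remaining homologous recombination genes had an unadjusted limma p above 0.05 on the probe set that stood for each gene. Xrcc3, which acts in strand exchange, had levels of 6.60 and 6.69 in CLP_RAGhigh and 6.37 and 5.19 in CLP_RAGlow. It was the gene of this role that separated upward, at 0.87 ± 0.49, while its second probe set gave 0.04. It was 0.27 without CLP_RAGlow replicate 2 and 1.46 without CLP_RAGlow replicate 1. Blm, the helicase that dissolves crossed strands, differed by -0.87 ± 0.52, a value that was -0.23 without CLP_RAGhigh replicate 1. The groups of Blm separated by a very narrow margin, with the nearest arrays at 7.37 and 7.40. Bard1, the partner of BRCA1, was dim on all arrays, and its difference of -0.21 ± 0.16 became -0.03 with an offset of 32 added before log2. Palb2 and Brca2, which act together at resected ends, differed by -0.05 ± 0.31 and -0.002 ± 0.37. Exo1, a resection nuclease, differed by -0.28 ± 0.44, and its 3 probe sets were all lower, from -1.45 to -0.28. The dimmest, singled out after its values were seen, had levels of 2.26 and 2.00 in CLP_RAGhigh and 3.60 and 3.56 in CLP_RAGlow. Its groups did not overlap, but each level was below the median of all probe sets. With probe sets averaged Exo1 differed by -0.75, with an unadjusted limma p of 0.0382 and an adjusted p of 0.909. Rad52, an annealing protein, had levels of 3.08 and 7.14 within CLP_RAGlow, so that its difference of 0.80 ± 1.25 has no direction beyond that spread.

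The mismatch repair member Msh6, which takes part in recognising mismatched bases, had levels of 9.46 and 8.67 in CLP_RAGhigh and 9.05 and 9.44 in CLP_RAGlow. The groups overlapped fully, with a difference of -0.18 ± 0.36 (limma adjusted p = 1).

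Set against each other, end joining and homologous recombination had median differences of 0.14 and -0.21, a gap of -0.35, but the arrays of CLP_RAGhigh did not share it. The gap was -0.09 with an offset of 32 added before log2 and -0.15 with probe sets averaged. Relative to each gene's mean over the arrays, the homologous recombination median stood at -0.38 on CLP_RAGhigh replicate 1 and at 0.21 on CLP_RAGhigh replicate 2. The same value was 0.16 and 0.20 on the CLP_RAGlow arrays, so CLP_RAGhigh replicate 1 alone was low. The end-joining median stood at 0.17 and -0.18 in CLP_RAGhigh and at -0.07 and -0.08 in CLP_RAGlow. Homologous recombination minus end joining was therefore -0.55 on the first CLP_RAGhigh array and 0.38 on the second, beside 0.23 and 0.27 in CLP_RAGlow. Without CLP_RAGhigh replicate 1 the gap between the median differences was 0.06, of the other sign. The 9 and 9 genes are not replicates, and 2 arrays against 2 cannot give a permutation p below 0.333, so no test was made of this contrast.

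**Figure D5:**
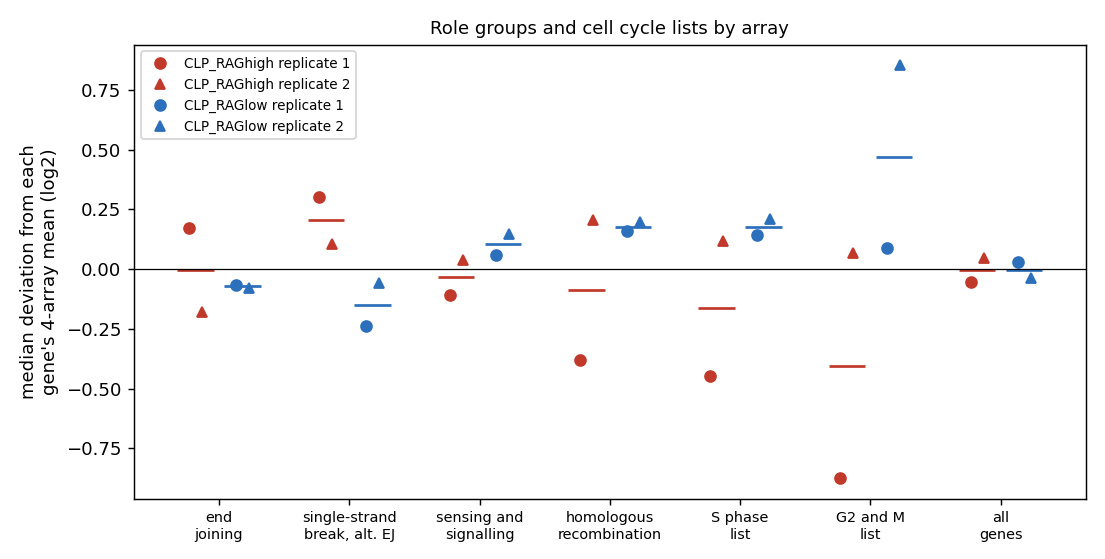
Median deviation of each role group from the genes' 4-array means on each array, in log2 units, beside the S phase list, the G2 and M phase list and all genes, with bars for group means. Homologous recombination is at -0.38 on CLP_RAGhigh replicate 1 and between 0.16 and 0.21 on the other 3 arrays, and the S phase list is at -0.45 there and between 0.12 and 0.21 elsewhere.

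Cell cycle genes were read beside these values. The S phase list, 23 measured genes that are not members, stood at -0.45 and 0.12 in CLP_RAGhigh and at 0.15 and 0.21 in CLP_RAGlow, close to the homologous recombination values array by array. Of these genes 17 were lower and 6 higher in the mean (median difference -0.38). The unadjusted limma p was under 0.05 for 4 lower (17.4%, beside 2.94% of all genes) and 0 higher (0%, beside 2.35%). Examples were Rrm2, of ribonucleotide reductase, at -1.40 ± 0.35, which was 0.05 without cross-hybridising probe sets, and Rfc3, of the clamp loader, at -1.37 ± 0.40. The G2 and M phase list stood at -0.88 and 0.07 in CLP_RAGhigh and at 0.09 and 0.85 in CLP_RAGlow, and so was far apart on the CLP_RAGlow arrays, where the homologous recombination values lay close together. For 8 of its 22 genes, each of them lower (36.4%, beside 2.94% of all genes), the unadjusted limma p was under 0.05. The 2 with the smallest p were the mitotic genes Cdc20 at -1.23 ± 0.24 and Ccnb2 at -1.46 ± 0.31. The part of the cell cycle in the repair values was not tested. The 3' to 5' ratio of Actb, a measure of RNA length, was 16.2 and 9.62 in CLP_RAGhigh and 13.5 and 24.5 in CLP_RAGlow, and immediate early genes stood at 0.77 on CLP_RAGhigh replicate 1 and between -0.36 and -0.11 on the other 3. Their part was not tested either.

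Other genes of the same pathways were read from lists, and 0 of them passed an adjusted limma p of 0.05. Of 13 other genes listed under end joining, 7 were higher and 6 lower, with a median of 0.00. Lig1 and Fen1 of this list also act in replication, and Trp53bp2 encodes a p53-binding protein and is not an end-joining gene. The unadjusted limma p was under 0.05 for 1, Mad2l2, a shieldin subunit, at -1.09 ± 0.35, followed by the flap nuclease gene Fen1 at -0.55 ± 0.23. Of 23 other homologous recombination and crosslink repair genes, 10 were higher and 13 lower (median -0.21), with the single-strand binding genes Rpa3 at -0.99 ± 0.35, the only one with p under 0.05, and Rpa1 at -0.61 ± 0.25. Of 19 other checkpoint and chromatin signalling genes, 8 were higher and 11 lower (median -0.20), with Rad9a, of the checkpoint clamp, at 0.71 ± 0.33 and Brcc3, a deubiquitinase, at -0.90 ± 0.42. Of 12 mismatch and base excision repair genes, 4 were higher and 8 lower (median -0.06), with the glycosylase genes Neil1 at 1.03 ± 0.48 and Ung at -0.40 ± 0.23. The single genes just named, unlike the lists, were taken by smallest p. Over all genes, 2.94% were lower and 2.35% higher at an unadjusted limma p under 0.05.

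Of 19 measured p53 target genes, the mean was higher for 11 and lower for 8, and the median difference was 0.06. Cdkn1a, the p21 inhibitor of cyclin-dependent kinases that p53 induces, had levels of 8.37 and 8.27 in CLP_RAGhigh and 7.34 and 6.97 in CLP_RAGlow. Its groups were well separated, with a difference of 1.17 ± 0.34 or 2.24-fold, with an unadjusted limma p of 0.0144 and an adjusted p of 0.812. Trp53inp1, a stress-induced partner of p53, had levels of 11.58 and 11.66 against 10.49 and 11.02 and a difference of 0.86 ± 0.21. Among all 19 genes the unadjusted limma p was under 0.05 for these 2, both higher (10.5%, beside 2.35% of all genes). The groups were separated for 5 genes upward and 5 downward (26.3% each, beside 15.4% and 15.8% of all genes).

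Markers of other cells that a bone marrow sort could hold were read in the same way, as lists. The granulocyte and monocyte list had 7 means higher and 4 lower of 11 (median 0.20), with Csf1r, the macrophage growth factor receptor, at -1.90 ± 0.52 and S100a8 at 2.63 ± 1.89. The erythroid list had 6 higher and 2 lower of 8 (median 0.31), with the transcription factor gene Klf1 at 2.02 ± 0.62 and the carbonic anhydrase gene Car1 at 1.28 ± 1.07. The mature B cell list had 3 higher and 5 lower of 8 (median -0.24), with the inhibitory receptor gene Cd22 at 0.68 ± 0.27 and the IgM receptor gene Fcmr at -0.36 ± 0.19. The T and natural killer cell list had 5 higher and 3 lower of 8 (median 0.09), with Cd8a at 0.26 ± 0.31 and Nkg7 at 0.19 ± 0.24. Of the CLP list 6 were higher and 2 lower of 8 (median 0.28), with Rag1 at 2.65 ± 0.34 and the stem and progenitor marker Cd34 at -1.12 ± 0.32. The immediate early list had 12 higher and 4 lower of 16 (median 0.27), with Ier2 at 0.76 ± 0.35 and Fos at 3.48 ± 1.67. Fos stood at 12.27 on CLP_RAGhigh replicate 1 and between 5.17 and 7.28 on the other 3 arrays, and its difference was 0.91 without that array. The part of these cells and of the stress genes in the repair values was not tested.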

How the data were processed

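RNA from 2000 sorted cells per sample went through a dual amplification and was hybridised to 1-colour arrays, 2 per group, per the labels. The authors deposited 1 RMA intensity per probe set, per the series' design text, and the values are on a linear scale, so log2 was taken here. Which RMA software made them is not stated. Of 45101 probe sets, 64 controls were left out, and 34945 had 1 gene symbol in the platform annotation, 932 several and 9160 none. The probe set with the highest mean stood for each of 18193 genes. Groups were compared with limma 3.58.1 in R 4.3.3 (lmFit, eBayes with a variance trend, 2 residual degrees of freedom), with Benjamini-Hochberg adjustment at 0.05. A check on simulated data required only that added changes be recovered in size. The simulation did not keep the variance trend, so it does not bear on the p-values. The members and gene lists were chosen with earlier results of these data known. Values on every array are given for members with an unadjusted p under 0.05, the 3 smallest p of each role, the core end-joining genes and Msh6, and values for the 2 genes of smallest p in each further list. Values of Atr, Trp53bp1 and Rad52 on the arrays were added for their roles. The deviations of same-numbered replicates from their group means had a correlation of -0.02 over genes. With 2 arrays per group this is 1 contrast, and it cannot tell whether the numbers pair the samples. Alternatives covered probe set choice, an offset, dim genes, the variance trend, normalization, a replicate block and each array left out.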

Additional observations from a re-analysis of the deposited data

How the results depend on the processing

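With 2 arrays per group, the count of genes past an adjusted limma p of 0.05 was 0, with 963 at an unadjusted p under 0.05. It was 2 with probe sets averaged, 1 without dim genes and 3 after quantile normalization, and 0 under the other alternatives apart from the replicate block. With the replicate block it was 7, none of them among the 62 named genes, and 6 members again had an unadjusted p under 0.05, with Prkdc in place of Xrcc6. In that blocked fit the unadjusted limma p was 0.0418 for Prkdc, with an adjusted p of 0.857, and 0.0505 for Xrcc6, with an adjusted p of 0.892. Members with an unadjusted p under 0.05 numbered 6, and 3 to 7 with 1 array left out, the lowest without CLP_RAGlow replicate 1. With probe sets averaged 5 members had an unadjusted limma p under 0.05, with Exo1 added and Xrcc6 and Mre11a no longer among them. The end-joining median of 0.14 was -0.054 with probe sets averaged and 0.057 with the offset of 32. The homologous recombination median was -0.032 with the offset, and its gap to end joining was -0.089 there and -0.15 for averaged probe sets. The single-strand break median was 0.17 with probe sets averaged. With 1 array left out the end-joining median ran from -0.19 to 0.31 and the sensing median from -0.24 to -0.063. The homologous recombination median then ran from -0.38 to -0.13 and its gap to end joining from -0.62 to 0.062. The single-strand break median then ran from 0.21 to 0.39. Of 678 values for the 62 genes, 644 kept direction and side and 34 reversed, 28 of them with an array left out. Averaging probe sets reversed Aplf (-0.080), Lig3 (-0.033), Atm (0.14) and Trp53bp1 (0.090). Leaving out cross-hybridising probe sets reversed Rrm2 (0.054), and the offset of 32 reversed Brca2 (0.0019). The ranges of the genes reversed by leaving out 1 array were as follows. Lig4 ran from -0.19 to 1.69, Poll from -0.27 to 1.20, Lig3 from -0.087 to 0.51, Atm from -0.17 to 0.053 and Chek1 from -0.48 to 0.080. Mdc1 ran from -0.31 to 0.13, Rnf8 from -0.074 to 0.54, Brca2 from -0.38 to 0.38, Exo1 from -0.74 to 0.18 and Nhej1 from -0.23 to 0.022. Nbn ran from -0.080 to 0.43, Palb2 from -0.22 to 0.13, Msh6 from -0.57 to 0.22, Xrcc4 from -0.89 to 0.53 and Aplf from -0.13 to 0.42. Rad52 ran from -1.23 to 2.83, Polm from -0.15 to 0.039, Car1 from -0.46 to 3.02 and S100a8 from -0.54 to 5.80. Fitting each probe set separately, an alternative chosen after seeing the data, gave reversed values for Aplf (-0.30), Lig3 (-0.40 and -0.21), Atm (0.34), Mre11a (0.22), Rad50 (-0.053), Trp53bp1 (0.17, 0.38, 0.33 and 0.16), Brca1 (0.058), Rad52 (-0.15) and Rad54l (0.028). The causes were not tested.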
